A study of Mus musculus with 8 samples.

Results

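The acute phase and antimicrobial secreted proteins described here are a group of 9 genes among the 35539 listed: Orm1, Orm2, Orm3, Lcn2, Ltf, Slpi, Saa3, Hp and C3. Their rows were found by gene name, without regard to case, and none of the 9 overlaps another annotated gene. The group was chosen on the levels of these genes in the same 8 tumors and their differences between treatments. Their levels and fold changes are therefore given as a description, without a test. All 9 reached 1 TPM in at least 2 tumors, which was the filter for the fit over all genes.

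The 8 libraries came from 8 subcutaneous tumors of 105K cells, Tsc2-deficient mouse kidney tumor cells, grown in Matrigel in 6-week-old female immunocompetent C57BL/6J mice. Tsc2 encodes a brake on the mTOR kinase, and all 4 groups share its loss in the tumor cells. There were 2 tumors per treatment, each of its own mouse: rapamycin with loratadine (A3L and C1R), rapamycin at 0.25 mg/kg/day (D1L and G3L), loratadine at 25 mg/kg/day (B3R and F3R) and the carboxymethylcellulose vehicle (B1L and F5L). Rapamycin inhibits mTOR, and loratadine blocks the histamine H1 receptor. The paper gives loratadine as oral and the labels as intraperitoneal. In each code the letter is the cage and the last letter the side of the body. The 3 right-side tumors all received loratadine, so A3L was the only left-side tumor with it. By the methods, dosing began on bigger tumors in the arms that received rapamycin, so starting volume and rapamycin cannot be told apart. Cages B and F held the tumors without rapamycin and cages A, C, D and G those with it, so cage and rapamycin cannot be told apart either. All tumors came from 1 cell line, and p-values measure the spread between these 8 tumors.

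Values are TPM (transcripts per 1000000 transcripts), a share of transcripts corrected for gene length, so levels of different genes can be compared on this scale. TPM keeps no read depth, and the depth behind each value is unknown. The labels call the tissue a mammary tumor. Of the milk protein genes that define the lactating mammary gland, Csn2 was at most 0.0233 TPM and Wap was listed at 0 in every tumor. Csn3 measured 174 TPM in B1L and at most 11.7 TPM in the other 7. The renal lineage factor Pax8 was present in all 8 (23.9 to 62.8 TPM), and so was Gata3 of the mammary gland markers (30.3 to 59.8 TPM).

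Acute phase proteins are plasma proteins whose synthesis, mainly in the liver, changes with infection, injury or a tumor. Interleukin-6 acting through STAT3, interleukin-1 and tumor necrosis factor acting through NF-kappaB, glucocorticoids and the C/EBP factors are the classic inducers of their genes. Many are also made outside the liver by epithelial cells, fat cells, macrophages and neutrophils. The 9 genes cover several roles: carriers of small molecules (Orm1, Orm2, Orm3), iron-withholding antimicrobial proteins (Lcn2, Ltf), an inhibitor of serine proteases (Slpi), a serum amyloid (Saa3), a hemoglobin scavenger (Hp) and the central complement component (C3).

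The promoters are shown because the genes share a classic inducer. The RefSeq table (GRCm38.p6) held a window from 250 bases before to 50 bases after the start site for 7 of the 9 genes, all but Orm1 and Hp. Both strands were searched for 4 motifs: the C/EBP motif TTGCNNAA, the STAT motif TTCNNNGAA, the glucocorticoid receptor motif ACANNNTGT and the NF-kappaB motif. The C/EBP motif was found in 7 of the 7 promoters and in 10.8% of all 32817 promoters of the same length. The glucocorticoid receptor motif was found in 2 of the 7 (Orm3 and Lcn2), against 6.85% of all promoters. The STAT and NF-kappaB motifs were found in 0 of the 7, against 8.29% and 8.46% of all promoters. No matches of different motifs overlapped. The stretches around the C/EBP matches, with 30 bases on each side where the window allows, follow in the direction of transcription, with the match in capitals. In Ltf, Slpi and Saa3 the motif reads on the opposite strand, so the capitals show its reverse complement.
Orm2: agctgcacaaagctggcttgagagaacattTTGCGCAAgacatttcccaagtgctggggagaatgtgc
Orm3: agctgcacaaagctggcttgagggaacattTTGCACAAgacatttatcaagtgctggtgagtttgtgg
Lcn2: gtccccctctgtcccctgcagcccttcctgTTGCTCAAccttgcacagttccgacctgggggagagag
Ltf: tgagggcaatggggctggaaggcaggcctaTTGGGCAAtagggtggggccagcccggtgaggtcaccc
Slpi: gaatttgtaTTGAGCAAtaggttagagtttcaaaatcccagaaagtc
Saa3: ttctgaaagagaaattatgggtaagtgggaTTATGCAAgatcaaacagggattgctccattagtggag
C3: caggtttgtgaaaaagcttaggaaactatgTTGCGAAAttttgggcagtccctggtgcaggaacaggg
The windows lie as follows: Orm2 at chr4:63362299-63362366 (+ strand), Orm3 at chr4:63356007-63356074 (+), Lcn2 at chr2:32387918-32387985 (-), Ltf at chr9:111019187-111019254 (+), Slpi at chr2:164356711-164356757 (-), Saa3 at chr7:46715738-46715805 (-) and C3 at chr17:57228144-57228211 (-). The match starts at position -45 relative to the start site in C3, the nearest of the 7, and at -241 in Slpi, the farthest. The Orm2 and Orm3 windows are 88.0% identical and share most of the stretch around the motif, so they are not independent matches. A match is a description of the letters and not a binding site, and binding was not measured.

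Summed over the 9 genes, the level was 2700 to 7032 TPM in the 4 tumors with rapamycin, against 280 to 1682 TPM in the 4 tumors without it. The sum follows its most abundant genes and is not a rise of all 9. C3 was the only gene of the 9 to separate the tumors in this way, and it held 3168 of the 3661 TPM in D1L. The lowest sum was that of the vehicle tumor B1L (280 TPM) and the highest that of the rapamycin tumor G3L (7032 TPM). The gene with the highest level was C3 in D1L, A3L, C1R and B3R, Lcn2 in F3R and B1L, Ltf in G3L and Slpi in F5L. The 9 genes thus did not move as a block. C3 separated the tumors by rapamycin, Orm3 separated them by loratadine, Lcn2 and Hp separated all 6 drug-treated tumors from both vehicle tumors, and the remaining 5 overlapped between the arms of both drugs and between treated and vehicle tumors. The share of all genes that separate treated from vehicle tumors was not counted, so nothing is read from that pattern, here or below. For a single treatment against vehicle, the tumors did not overlap for 47.9% to 67.7% of all genes tested.

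**Figure D1:**
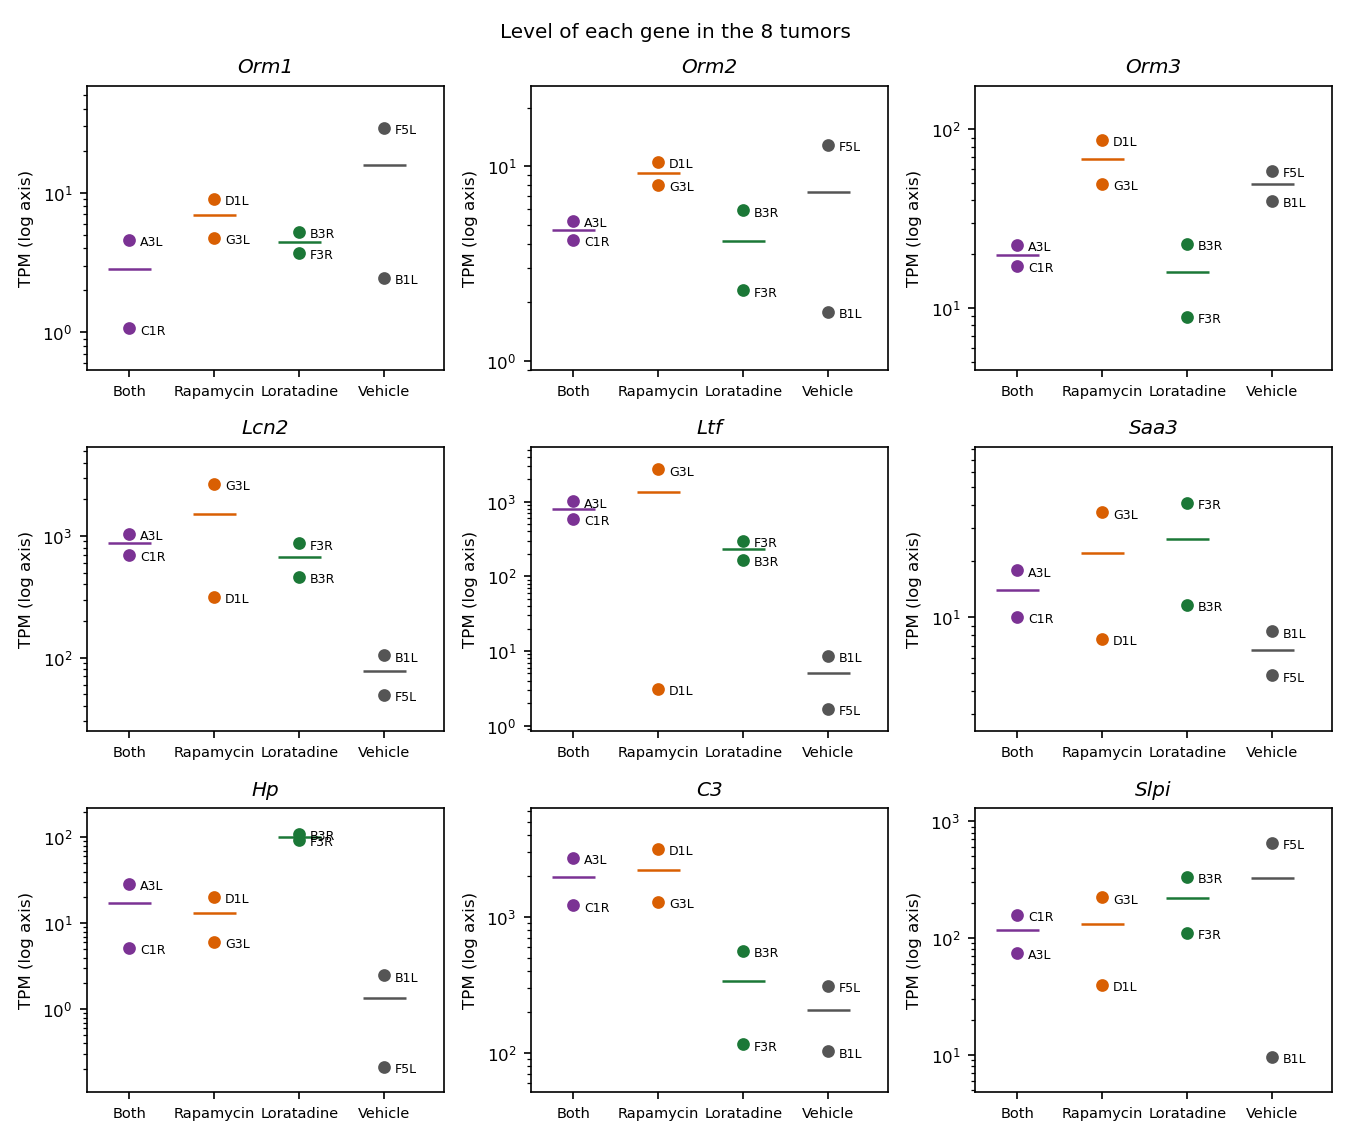
TPM of each of the 9 genes (log axis) in the 8 tumors, by treatment, with 1 point per tumor and a line at the mean of the 2. C3 is at 1221 TPM or more in all 4 tumors with rapamycin and at 565 TPM or less in the others, and Orm3 is at 22.9 TPM or less in all 4 tumors with loratadine and at 39.7 TPM or more in the others.

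C3 (ENSMUSG00000024164), on the minus strand of chromosome 17 (57343397 to 57367559, mm9), is the protein on which the pathways of complement activation converge. It measured 2707 TPM in A3L and 1221 TPM in C1R with both drugs, and 3168 TPM in D1L and 1300 TPM in G3L with rapamycin. It measured 565 TPM in B3R and 116 TPM in F3R with loratadine, and 103 TPM in B1L and 313 TPM in F5L with vehicle. Every tumor with rapamycin was above every tumor without it. The mean was 2099 ± 987 TPM with rapamycin and 274 ± 216 TPM without (SD, n = 4 each). The additive model with both drugs as terms gave a log2 fold change of 3.15 ± 0.59 (SE) for rapamycin and 0.18 ± 0.59 for loratadine. With both drugs C3 was 2.82 ± 0.88 higher than with loratadine alone and -0.16 ± 0.88 different from rapamycin alone, both on the log2 scale. At its highest, in D1L, C3 ranked 28th of all listed genes. In bulk tumor RNA, fewer cells of a type and less RNA per cell cannot be told apart, here and in the results that follow.

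Of the 9 genes, 1 (C3) was past the threshold of the fit over all genes (limma, adjusted p under 0.05) and higher with rapamycin, against a background of 12% of the 15095 genes tested, and 0 were lower, against 7.88%. Nothing is read from this count, since the genes were chosen on these tumors. The C3 fold change stayed between 2.77 and 3.68 under every alternative tried, including each tumor left out. The side of the body as a term gave 2.99, the value without A3L. C3 was also the only one of the 9 whose 4 tumors with rapamycin did not overlap the 4 without, which held for 26.2% of all genes tested. The split of the background depends on scaling. With the TPM as deposited, 1813 genes were higher and 1189 lower with rapamycin, and the median log2 fold change over all genes was 0.12. After median-of-ratios scaling, 1304 were higher, 1624 were lower and the median was 0.02.

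**Figure D2:**
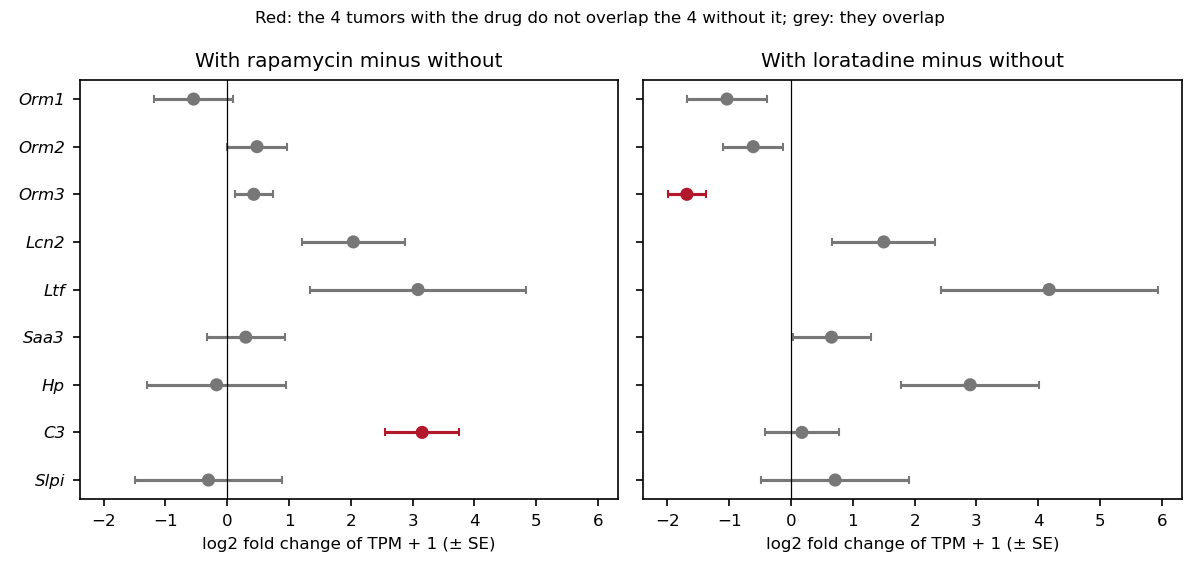
Log2 fold change (horizontal axis, on TPM + 1) of the 9 genes with rapamycin (left) and loratadine (right), from the additive model over 8 tumors, with bars of 1 SE. Red marks genes whose 4 tumors with the drug do not overlap the 4 without it: C3 (3.15 ± 0.59) for rapamycin and Orm3 (-1.69 ± 0.31) for loratadine.

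Part of the rest of the complement list was also higher with rapamycin. This and the other related lists were chosen with earlier results of these data known. Their counts and medians are therefore a description, and nothing is read from them. Of 21 genes tested, 6 rose and 0 fell with rapamycin, against the backgrounds of 12% and 7.88%, and the list's median log2 fold change was 0.67 against 0.12 over all genes. Cfb, the factor that pairs with C3 in the alternative pathway convertase, rose by 2.11 ± 0.32 on the log2 scale (limma, adjusted p = 0.00975), with 79.6 to 173 TPM in the 4 tumors with rapamycin and 14.9 to 34.2 TPM in the 4 without. Serping1, the inhibitor of the C1 proteases, rose by 1.69 ± 0.41 (adjusted p = 0.0281). Clu, a secreted chaperone that also blocks the terminal complex, rose by 1.15 ± 0.34 (adjusted p = 0.0489) to a mean of 8040 TPM with rapamycin, against 3689 TPM without. The count of 6 rested on most tumors. It was 2 without B1L, F5L, F3R or D1L, 3 without G3L or A3L, and 3 with the side of the body as a term, and 4 after median-of-ratios scaling. With loratadine 0 of the 21 were past the threshold (limma), and 4 had an unadjusted p under 0.05.

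Some fibroblast markers, a list chosen in the same way, were higher with rapamycin as well. Of 10 tested, 4 rose with rapamycin and 0 fell, against the backgrounds of 12% and 7.88%. That count was 0 without F5L or F3R, 1 without B1L, 2 without A3L or B3R, 2 with the side as a term and 2 after median-of-ratios scaling. The median log2 fold change of the list was 0.95 for rapamycin and 1.12 for loratadine, with 8 of 10 at an unadjusted p under 0.05 for each drug, and 0 past the threshold for loratadine (limma). Their summed level was 542 to 3831 TPM with rapamycin and 249 to 1066 TPM without. Macrophage markers, from another source of C3, summed to 941 to 1821 TPM with rapamycin and 790 to 2033 TPM without. Hepatocyte markers, from the main source of plasma C3, summed to 1.39 to 4.23 TPM in all 8 tumors, with Alb at most 0.438 TPM and Ttr listed at 0. The part of fibroblasts in the C3 level was not tested.

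Orm1, Orm2 and Orm3 encode orosomucoids, abundant plasma glycoproteins that carry basic and lipophilic drugs and bind other small molecules. They are neighbours on the plus strand of chromosome 4 (mm9), with Orm1 (ENSMUSG00000039196) at 63005594 to 63009197, Orm3 (ENSMUSG00000028359) at 63017196 to 63020545 and Orm2 (ENSMUSG00000061540) at 63023483 to 63026912. Their coding sequences are alike (89.9% identical for Orm1 and Orm2, 86.4% for Orm1 and Orm3, 88.3% for Orm2 and Orm3), with identical runs of up to 104 bases. Reads may be split between them, and their separate values are uncertain to that extent.

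Orm3 had the highest level of the 3 in every tumor. It measured 22.5 TPM in A3L and 17.1 TPM in C1R with both drugs, and 22.9 TPM in B3R and 8.96 TPM in F3R with loratadine. It measured 87.4 TPM in D1L and 49.6 TPM in G3L with rapamycin, and 39.7 TPM in B1L and 58.8 TPM in F5L with vehicle. All 4 tumors with loratadine were below all 4 without it. The mean was 17.9 ± 6.51 TPM with loratadine and 58.9 ± 20.6 TPM without (SD, n = 4 each), and the log2 fold change was -1.69 ± 0.31 (SE) for loratadine and 0.43 ± 0.31 for rapamycin. The difference was alike in both settings: -1.69 ± 0.46 for both drugs against rapamycin and -1.68 ± 0.46 for loratadine against vehicle. Within cage B Orm3 measured 22.9 TPM with loratadine and 39.7 TPM with vehicle. Within cage F it measured 8.96 TPM with loratadine and 58.8 TPM with vehicle. The fold change for loratadine lay between -1.94 and -1.43 under every alternative. It was -1.47 with the side as a term, which rests on A3L as the only left-side tumor with loratadine.

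No gene was past the threshold for loratadine. Of the 9 genes 0 were called, beside a background of 0% of 15095 (limma, 1255 genes at an unadjusted p under 0.05). Without G3L the count of the 9 was 1 (Ltf), beside 23 over all genes. The median log2 fold change of the 9 genes was 0.66 for loratadine, against 0.10 over all genes, and 0.43 for rapamycin, against 0.12. Over the alternatives it was -0.21 (without B1L) to 1.28 (without G3L) for loratadine and 0.22 to 0.78 for rapamycin, so the sign for loratadine rested on B1L. Groups that do not overlap were rarer for loratadine than for rapamycin: 2.75% of all genes tested, and 1 of the 9 genes (Orm3). Nothing is read from this count either, since these genes were chosen on the same contrast.

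Orm1 and Orm2 were lower and less regular. Orm1 measured 4.62 and 1.07 TPM with both drugs, 9.05 and 4.77 TPM with rapamycin, 5.22 and 3.71 TPM with loratadine, and 2.46 and 29.0 TPM with vehicle. Orm2 measured 5.25 and 4.19 TPM with both drugs, 10.6 and 8.0 TPM with rapamycin, 5.93 and 2.30 TPM with loratadine, and 1.78 and 12.9 TPM with vehicle. The vehicle tumors held the highest value (F5L) of both genes, and also the lowest of Orm2 (B1L). The fold changes with loratadine were -1.04 ± 0.64 for Orm1 (-0.24 with the side as a term) and -0.61 ± 0.49 for Orm2, with overlapping tumors. With both drugs, all 3 orosomucoid genes were below both tumors with rapamycin alone, by -1.16 ± 0.97 for Orm1, -0.84 ± 0.73 for Orm2 and -1.69 ± 0.46 for Orm3 on the log2 scale. The gene most like Orm3 over the 8 tumors was Fxyd2, the renal gamma subunit regulator of the sodium pump (r = 0.97, rho = 0.98, of 10492 genes). Fxyd2 measured 192 and 103 TPM with both drugs, 127 and 47.6 TPM with loratadine, 864 and 349 TPM with rapamycin, and 212 and 687 TPM with vehicle, so it too was lower in every tumor with loratadine. The genes most like the others were Tbl3 for Orm2 (r = 0.96) and Prkx for Orm1 (r = 0.94). Among so many genes and 8 tumors, a high r is a description of shared order.

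Lcn2 (ENSMUSG00000026822), on the minus strand of chromosome 2 (32240153 to 32243317, mm9), encodes lipocalin-2, which withholds iron from bacteria by binding their siderophores and is a known injury marker of the kidney tubule. It measured 1038 TPM in A3L and 695 TPM in C1R with both drugs, and 315 TPM in D1L and 2688 TPM in G3L with rapamycin. It measured 462 TPM in B3R and 868 TPM in F3R with loratadine, against 105 TPM in B1L and 49.5 TPM in F5L with vehicle. All 6 treated tumors were above both vehicle tumors. Against vehicle the log2 fold change was 3.54 ± 0.93 for both drugs, 3.66 ± 0.93 for rapamycin and 3.12 ± 0.93 for loratadine (SE, 4 group means over 8 tumors). The value for rapamycin against vehicle was 5.20 without D1L and 2.12 without G3L. Both drugs together were -0.12 ± 0.93 from rapamycin alone and 0.42 ± 0.93 from loratadine alone. The interaction, the departure of the combined change from the sum of the single ones, was -3.24 ± 1.31. In the additive model the terms were 2.04 ± 0.84 for rapamycin and 1.501 ± 0.84 for loratadine. Without G3L the rapamycin term was 1.10 and the loratadine term 2.44, without F5L the loratadine term was 0.96, without F3R it was 0.996, and it was 0.88 with the side of the body as a term.

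Ltf (ENSMUSG00000032496), on the plus strand of chromosome 9 (110921796 to 110945270, mm9), encodes lactoferrin, which binds iron in milk, mucosal secretions and the secondary granules of neutrophils. It measured 1016 TPM in A3L and 588 TPM in C1R with both drugs, and 3.10 TPM in D1L and 2716 TPM in G3L with rapamycin. It measured 167 TPM in B3R and 300 TPM in F3R with loratadine, against 8.49 TPM in B1L and 1.67 TPM in F5L with vehicle. All 4 tumors with loratadine and G3L held at least 167 TPM, whereas both vehicle tumors and D1L held less than 9 TPM. From the lowest to the highest tumor the level differed 1628-fold, and the SD of log2(TPM + 1) over the 8 tumors ranked 1st of the 15095 genes tested. Between the rapamycin tumors D1L and G3L the difference was 9.37 on the log2 scale, again 1st of 15095, against a median of 0.38 over all genes for this pair. The log2 fold changes were 3.09 ± 1.75 for rapamycin and 4.18 ± 1.75 for loratadine. Without G3L, the loratadine term was 6.31 ± 0.59 and the rapamycin term 0.95. Without D1L, the loratadine term was 2.56 and the rapamycin term 4.70.

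Lcn2 and Ltf are both neutrophil granule proteins, and most defining granule genes of that cell were near 0. Of the 16 neutrophil markers, 9 were tested, and Camp was at most 0.292 TPM, Ngp 0.0475 TPM, Mpo 0.169 TPM, Elane 0.147 TPM and Fcnb 0.0467 TPM in any tumor. S100a8 and S100a9 of the same list were present in every tumor, at 2.58 to 23.7 TPM and 2.01 to 27.9 TPM, both highest in B1L. The summed level of the list was 29.6 to 41.3 TPM in the 4 tumors with rapamycin, against 21.2 to 71.4 TPM in the 4 without, and its highest tumor was the vehicle tumor B1L. Prtn3, a granule protease, was the 1 marker past the threshold: it rose by 1.57 ± 0.39 with rapamycin (adjusted p = 0.0298), to 6.39 to 15.8 TPM, against 0.760 to 6.504 TPM without, and was not called without B1L, F5L, F3R, D1L, G3L or A3L. The part of neutrophils in the Lcn2 and Ltf levels was not tested.

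The levels of Lcn2 and Ltf ran with the mean log2 levels of the renal tubule, epithelial and fibroblast markers. The gene most like Ltf over the 8 tumors was Umod, which encodes uromodulin of the thick ascending limb (Pearson r = 0.99, Spearman rho = 0.95 on log2(TPM + 1), the highest of 10492 genes compared). Umod measured 62.6 and 85.3 TPM with both drugs, 0.666 and 144 TPM with rapamycin, 19.2 and 38.2 TPM with loratadine, and 0.412 and 0.0416 TPM with vehicle. As for Ltf, D1L was low and G3L was the highest. The next most like Ltf were Khdc1a (r = 0.99) and Atp10b (r = 0.98). The gene most like Lcn2 was Gnb2 (r = 0.99, rho = 0.98). Against the mean of 12 renal tubule markers, Pearson r was 0.95 for Lcn2 (rho = 0.93) and 0.87 for Ltf (rho = 0.90). Leaving out F5L and B1L, the tumors farthest from the median, r was 0.82 and 0.74. Against the mean of 12 epithelial markers, r was 0.78 for Lcn2 (rho = 0.83) and 0.82 for Ltf (rho = 0.79), and 0.70 and 0.91 without F3R and G3L. The summed epithelial level was 1927 TPM in F5L, where Lcn2 and Ltf were lowest, and 1888 TPM in G3L, where they were highest. Krt8 and Krt18 of that list had log2 fold changes of -1.08 ± 0.22 and -0.67 ± 0.29 with rapamycin, and the list's median was 0.06. Against the mean of 10 fibroblast markers, r was 0.72 for Lcn2 (rho = 0.60) and 0.74 for Ltf (rho = 0.64), and 0.78 and 0.76 without C1R and B1L. These points share their library, their tumor and their treatment, n is 8, and the likeness is a description.

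**Figure D3:**
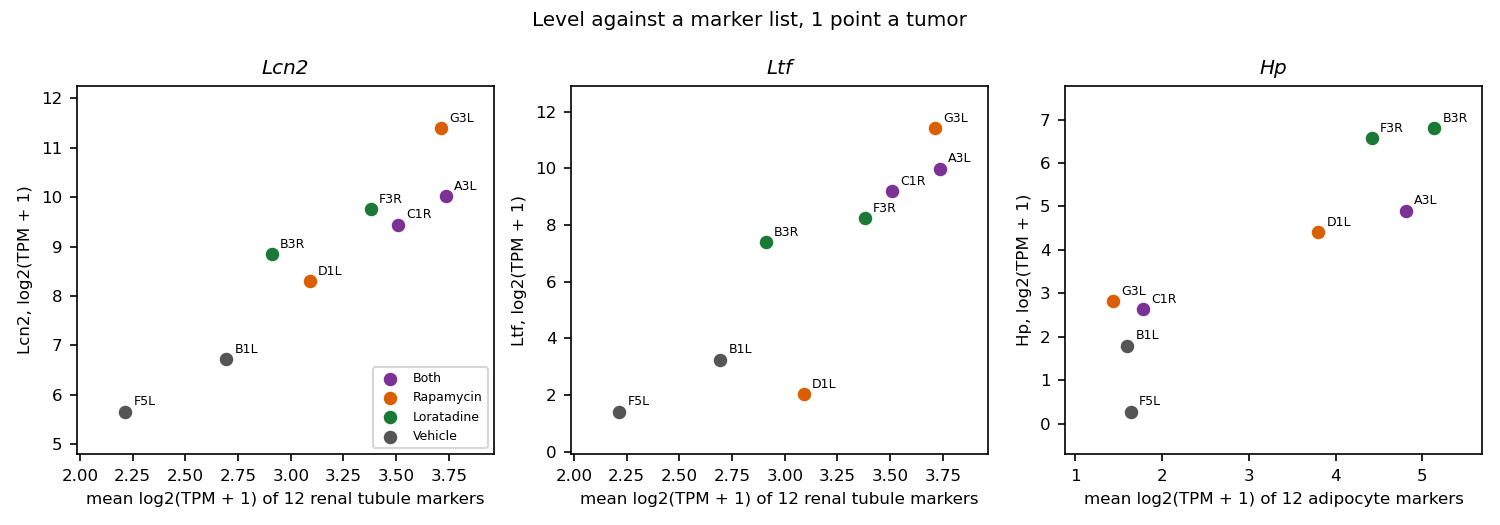
Log2(TPM + 1) of Lcn2, Ltf and Hp (vertical axes) against the mean log2(TPM + 1) of 12 renal tubule or 12 adipocyte markers (horizontal axes), with 1 point per tumor coloured by treatment. D1L holds Ltf at the vehicle level at a middle level of renal markers, and the 4 tumors with the highest Hp are the 4 with the highest adipocyte markers.

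Slpi (ENSMUSG00000017002), on the minus strand of chromosome 2 (164179806 to 164214831, mm9), encodes the secretory leukocyte peptidase inhibitor, which protects epithelia from elastase. It measured 75.0 and 159 TPM with both drugs, 39.8 and 223 TPM with rapamycin, 332 and 112 TPM with loratadine, and 9.58 and 648 TPM with vehicle. The lowest and the highest tumor were both vehicle tumors, B1L and F5L, and no pair of treatments was without overlap. The difference between those tumors was 5.94 on the log2 scale, 2nd of the 15095 genes for this pair, against a median of 0.28. The log2 fold changes were -0.30 ± 1.2 for rapamycin and 0.71 ± 1.2 for loratadine. Without F5L they were 0.78 for rapamycin and 1.80 for loratadine, and without B1L -1.59 and -0.58. The sign of the rapamycin value also turned without B3R, D1L or A3L and with the side of the body as a term, and that of the loratadine value with the side as a term (-0.23). Neither direction was settled. The annotated span of Slpi is the longest of these genes, and its TPM may depend on the transcript models used.

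Saa3 (ENSMUSG00000040026), on the minus strand of chromosome 7 (53967368 to 53971046, mm9), encodes the serum amyloid A that mice make mainly outside the liver. It measured 17.8 and 9.996 TPM with both drugs, 7.62 and 36.5 TPM with rapamycin, 11.6 and 41.1 TPM with loratadine, and 8.38 and 4.85 TPM with vehicle. Both tumors with both drugs and both with loratadine were above the vehicle tumors, while D1L was not. The fold changes were 0.30 ± 0.63 for rapamycin and 0.66 ± 0.63 for loratadine. The rapamycin value turned sign without F5L (-0.03) or G3L (-0.32), and the loratadine value lay between 0.11 (without F3R) and 1.28 (without G3L). Its level ran with the mean log2 level of the epithelial markers (r = 0.97, rho = 0.98, and r = 0.88 without F3R and G3L, over 8 tumors). The summed TPM of that list had another order: 1927 TPM in F5L, where Saa3 was lowest, and 802 TPM, the lowest sum, in C1R. The serum amyloids of the liver were nearly absent, with Saa1 at most 0.259 TPM and Saa2 at most 0.607 TPM.

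Hp (ENSMUSG00000031722), on the minus strand of chromosome 8 (112099030 to 112103072, mm9), encodes haptoglobin, which captures free hemoglobin and is made by liver and fat. It measured 28.9 TPM in A3L and 5.21 TPM in C1R with both drugs, and 20.3 TPM in D1L and 6.04 TPM in G3L with rapamycin. It measured 110.0 TPM in B3R and 94.3 TPM in F3R with loratadine, against 2.49 TPM in B1L and 0.215 TPM in F5L with vehicle. The loratadine tumors were above all others, and all 6 treated tumors were above both vehicle tumors. Against vehicle the log2 fold change was 2.73 ± 0.87 for both drugs, 2.57 ± 0.87 for rapamycin and 5.64 ± 0.87 for loratadine. Both drugs were -2.92 ± 0.87 from loratadine alone and 0.15 ± 0.87 from rapamycin alone, and the interaction was -5.49 ± 1.22.

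Adipocyte markers moved with Hp. Against the mean of 12 adipocyte markers, Pearson r was 0.90 and Spearman rho 0.81 over the 8 tumors, and r was 0.88 without B3R and A3L. The list summed to 694 and 69.5 TPM with both drugs, 278 and 39.1 TPM with rapamycin, 953 and 588 TPM with loratadine, and 94.7 and 91.8 TPM with vehicle. Adiponectin (Adipoq), a defining fat cell gene, measured 28.5 TPM in B3R, 18.2 TPM in F3R, 25.8 TPM in A3L and 9.79 TPM in D1L, and at most 0.309 TPM in the other 4. G3L, with Hp above the vehicle tumors, had adipocyte markers below the vehicle level by the sum and by the mean, and C1R by the sum but not by the mean. The genes most like Hp were Prkaca (r = 0.97, rho = 0.98) and Igkc (r = 0.95, rho = 0.98). Retn, which encodes the fat cell hormone resistin, came next (r = 0.93, rho = 0.95). The part of fat tissue in the Hp level was not tested.

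The 9 genes fell into loose sets by their likeness over the 8 tumors. The closest of the 36 pairs was Lcn2 with Ltf (r = 0.91, rho = 0.95), followed by Lcn2 with Saa3 (r = 0.83, rho = 0.88) and Ltf with Saa3 (r = 0.78, rho = 0.81). The orosomucoids followed each other (r = 0.76 for Orm1 with Orm2, 0.68 for Orm2 with Orm3, 0.58 for Orm1 with Orm3), which their shared sequence can also give. Against Ltf, r was -0.58 for Orm1 and for Orm3 and -0.26 for Orm2. C3 was close to none of the others, at most r = 0.59 with Orm2, and Slpi had at most r = 0.58, also with Orm2. These values are a description over 8 tumors that share treatments.

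**Figure D4:**
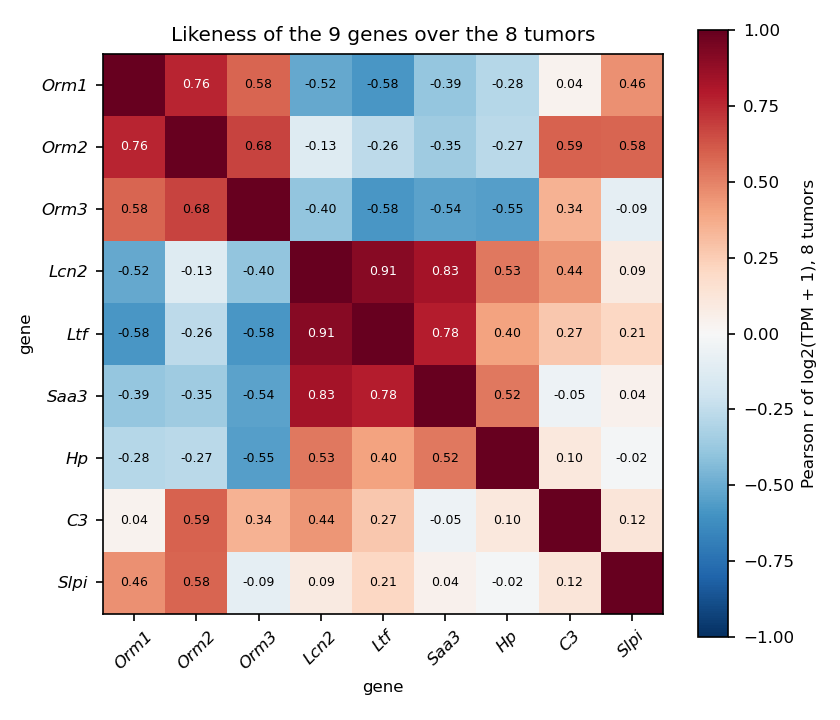
Pearson r of log2(TPM + 1) over the 8 tumors for each pair of the 9 genes, with blue for negative and red for positive values. Lcn2, Ltf and Saa3 form a block of r from 0.78 to 0.91, the 3 orosomucoids form another of 0.58 to 0.76, and C3 and Slpi stay below 0.60 with all others.

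Set side by side by pair of treatments, the 9 genes gave few calls beyond C3. Against vehicle, 2 of 9 (Lcn2 and C3) were past the threshold and higher with rapamycin, against a background of 6.65%, 0 of 9 with both drugs, against 10.6%, and 0 of 9 with loratadine, against 0.0199%. Between both drugs and rapamycin alone, between both drugs and loratadine alone, and for the interaction, 0 of 9 were called, against 0%, 0% and 0.00662% (limma, with 359 and 2204 of all genes at an unadjusted p under 0.05 in the comparisons with rapamycin and with loratadine). Tumors did not overlap for 3 of 9 genes in rapamycin against vehicle (58.3% of all genes), 5 in loratadine against vehicle (47.9%), 6 in both drugs against vehicle (67.7%), 3 in both drugs against rapamycin (26%) and 3 in both drugs against loratadine (54.4%). The 2 called for rapamycin were 0 without B1L, F5L, G3L, A3L or C1R and 1 without B3R or F3R, and the 0 called for both drugs were 2 without D1L or G3L. The 3 comparisons with vehicle share B1L and F5L. Nothing is read from these counts.

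Of 27 other acute phase proteins listed, 13 were tested, and Crp, Apcs, Fga and Hamp, made mainly by the liver, stayed at or below 0.513 TPM. With rapamycin 3 rose and 3 fell of the 13, against 12% and 7.88%, and the median log2 fold change was 0.61. With no filter on low values, which brought in genes at or near 0, the median was 1.3e-06 over 25 genes. Lbp, which presents bacterial lipopolysaccharide to CD14, rose by 2.68 ± 0.79 (adjusted p = 0.0488). Cp, the copper-carrying ferroxidase ceruloplasmin, rose by 1.60 ± 0.32 (adjusted p = 0.0162), with 881 to 1260 TPM with rapamycin and 142 to 699 TPM without. Mt2, a metal-binding metallothionein, and Tfrc, the transferrin receptor, fell, with log2 fold changes of -2.20 ± 0.50 and -2.06 ± 0.38 (adjusted p = 0.0224 and 0.0141). The 3 that fell were 1 without B1L, F5L, F3R or A3L, 1 with no filter and 1 with the side of the body as a term, and the 3 that rose were 2 with the side as a term.

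Of 17 other antimicrobial secreted proteins tested, 4 rose and 0 fell with rapamycin, against the same backgrounds of 12% and 7.88%, with a median of 0.61. Dmbt1, a mucosal scavenger protein that binds bacteria, rose by 4.34 ± 0.90 (adjusted p = 0.0185). It measured 28.5 and 37.3 TPM with both drugs, 3.44 and 138 TPM with rapamycin, 0.593 and 1.53 TPM with loratadine, and 0.0325 and 0 TPM with vehicle. As for Ltf, D1L was the lowest and G3L the highest of the tumors with rapamycin, yet D1L stayed above every tumor without it. Cst3, the cysteine protease inhibitor cystatin C, rose by 1.24 ± 0.25 (adjusted p = 0.0171). Chil1, a secreted chitinase-like protein, rose by 2.02 ± 0.44 (adjusted p = 0.0205). The count of 4 was 0 without B1L, F5L or A3L and 0 with the side of the body as a term.

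Of 16 receptors and binding partners of the 9 proteins tested, 2 rose and 1 fell with rapamycin, near the backgrounds of 12% and 7.88%, with a median of -0.17. Slc22a17, a receptor for lipocalin-2, rose by 1.74 ± 0.22 (adjusted p = 0.00782), with 6.89 to 12.3 TPM with rapamycin and 1.40 to 3.65 TPM without. Hmox1, the heme-degrading enzyme downstream of hemoglobin uptake, fell by 2.79 ± 0.38 on the log2 scale (adjusted p = 0.00815), with 39.8 to 212 TPM with rapamycin and 317 to 860 TPM without. The 2 that rose were 1 without any tumor but F3R, and the 1 that fell was 2 without C1R.

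Of 20 cytokines and cytokine receptors that induce acute phase genes, 6 rose and 1 fell with rapamycin, against 12% and 7.88%, with a median of 0.33. Il1r1, the signalling receptor of interleukin-1, rose by 1.39 ± 0.21 (adjusted p = 0.0097), Il11ra1 by 1.16 ± 0.19 (adjusted p = 0.0111) and Ifngr1 by 1.09 ± 0.25 (adjusted p = 0.0239). Lif, a cytokine of the interleukin-6 family, fell by 0.88 ± 0.16 (adjusted p = 0.0139). The 6 that rose were 3 without B1L or F5L, 2 without F3R or A3L, and 2 with the side as a term, and the 1 that fell was 2 without F3R. Of 24 transcription factors and feedback regulators, 4 rose and 0 fell, against 12% and 7.88%, with a median of 0.40. Nfkb1 and Relb, subunits of NF-kappaB, rose by 1.05 ± 0.23 (adjusted p = 0.0214) and 0.97 ± 0.18 (adjusted p = 0.0134). Cebpa, a C/EBP factor, rose by 0.72 ± 0.19 (adjusted p = 0.0353), and Rela by 0.52 ± 0.14 (adjusted p = 0.0387). Of the other C/EBP factors, named after their values were seen, Cebpb had a log2 fold change of 0.09 ± 0.10 (142.7 to 169.2 TPM in the 8 tumors) and Cebpd of 0.30 ± 0.38, neither past the threshold and both with overlapping tumors. That count was 1 without B1L, F5L, F3R or A3L, 2 without D1L or G3L, 2 after median-of-ratios scaling and 1 with the side as a term. For loratadine, 0 genes of these 6 lists were past the threshold (limma), with 0 to 6 genes a list at an unadjusted p under 0.05.

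**Figure D5:**
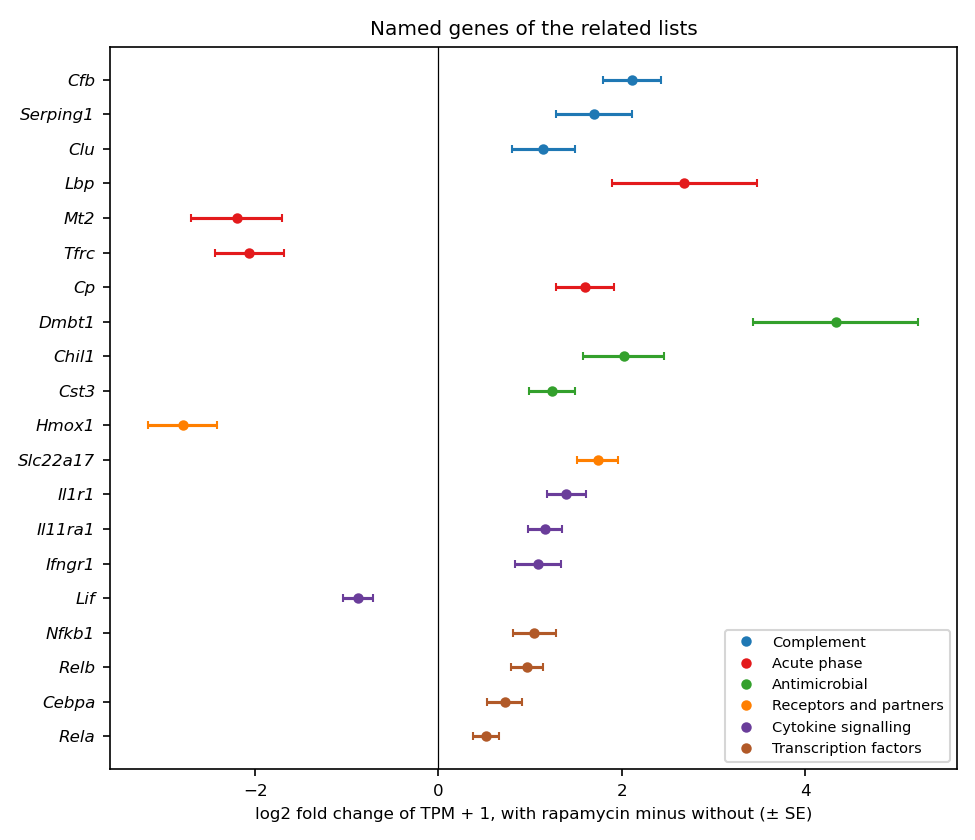
Log2 fold change with rapamycin (horizontal axis, on TPM + 1, bars of 1 SE) of the 20 named genes of the 6 related lists, coloured by list. Dmbt1 (4.34 ± 0.90) and Lbp (2.68 ± 0.79) rose the most, and Hmox1 (-2.79 ± 0.38) fell the most of those named.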

How the data were processed

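RNA of 8 tumors was sequenced single-end. The authors deposited TPM per gene, without replicates pooled, in a pair of tables that agree within 5e-07 TPM; the first was used. By the paper they were made with Kallisto and tximport on mm9, whereas STAR 2.4.0f1, SAMtools 0.1.18 and bedtools are named in the processing notes of the submitters, and which gave the values is not settled. The DESeq2 test of the paper needs counts and was not run. Samples were grouped by treatment from the labels.

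The 9 genes and the 15 related lists were chosen with earlier results of these data known. The 15095 genes that reached 1 TPM in 2 or more libraries were fitted as log2(TPM + 1) in R 4.3.3 using limma 3.58.1 (empirical Bayes with intensity trend, two-sided, Benjamini-Hochberg over all genes, threshold 0.05). Fold changes are on the log2(TPM + 1) scale, which understates changes of low genes. The drug terms come from an additive model over 8 libraries (5 residual degrees of freedom). The comparisons between treatments and the interaction used 4 group means (4 residual degrees of freedom). In simulated data with known changes, 135 and 122 of 200 genes with a log2 change of 1 were recovered for rapamycin and loratadine, out of 15095. The simulation used independent normal noise with the spread of each gene, and the changed genes were drawn from the more abundant ones. These shares need not hold for genes that vary as much as Ltf or Slpi.

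Named were, of each related list, up to 4 genes past the threshold for rapamycin with no overlap of the arms and 5 TPM or more on average in the higher arm, by size of change, or, where fewer than 2 passed, the 2 with the highest mean. Most alike genes were the 3 with the highest r of those averaging 5 TPM or more, leaving out unnamed gene models. Gene positions are from the NCBIM37 (mm9) annotation, by identifier. Promoters are from RefSeq. Coding sequences were aligned with Biopython 1.88, and figures drawn with matplotlib 3.10.9 in Python 3.11.15. Alternatives were pseudocounts of 0.1 and 0.5, no filter, only genes averaging 5 TPM or more, median-of-ratios and quantile scaling, limma without the trend, robust or with array weights, the second table, each library left out, group means for the drug terms, the cage as a block, the side added as a covariate, only the groups compared, and an adjusted p under 0.1.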

Additional observations from a re-analysis of the deposited data

Results flagged for a closer look

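In an arm of 4 tumors, 8 of 148 arms of the named related genes had 1 tumor whose gap to the nearest other was past Dixon's 95% critical value for 4 samples, as a ratio to the arm's range on log2(TPM + 1), and 0 of 36 arms of the 9 genes did. Chance gives about 1 in 20 arms. Among tumors with rapamycin, C1R was highest for the muscle genes Acta1 (40.5 TPM, ratio 0.932) and Mylpf (23.0 TPM, ratio 0.871), and D1L for Hmox1 (212 TPM, ratio 0.832). Among tumors with loratadine, C1R was lowest for the fat genes Fabp4 (5.33 TPM, ratio 0.957) and Cfd (1.23 TPM, ratio 0.859), and A3L for Lyz2 (598 TPM, ratio 0.89). Among tumors without loratadine, D1L was highest for Cfd (81.3 TPM, ratio 0.893), and among tumors without rapamycin B3R for Cst3 (2080 TPM, ratio 0.918).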

How the results depend on the processing

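Without a library, the count of the 9 genes past the threshold stayed at 1 for rapamycin (C3), was 0 to 1 for loratadine (Ltf without G3L), 0 to 2 for rapamycin against vehicle and 0 to 2 for both drugs against vehicle. For rapamycin against vehicle the 2 became 0 with no filter, without the intensity trend, with array weights and with only the groups compared. Over all genes the 1790 called became 589, 1559, 315 and 173 in these settings. The 2 became 1 with median-of-ratios scaling and with quantile normalization, where 2065 and 1753 of all genes were called. For both drugs against vehicle the 0 became 1 with a mean of at least 5 TPM and 3 with array weights, with only the groups compared and at an adjusted p under 0.1. Over all genes the 1600 called became 1478, 2712, 1500 and 3515 in these settings. The causes were not tested. Without D1L the 2 for rapamycin against vehicle were Lcn2 and Ltf in place of Lcn2 and C3. The cage block for loratadine against vehicle kept the count at 0.

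Over all genes, 3002 were past the threshold for rapamycin, 948 to 2863 without a library, 941 with the side as a term, 5218 with array weights and 4829 at an adjusted p under 0.1. For loratadine the count over all genes was 0, and 0 to 23 without a library. With 2 tumors per treatment, no read depth and 3 of 4 loratadine tumors on the right side, small differences cannot be resolved.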
